A study of Caenorhabditis elegans with 6 samples.

Results

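The effect of losing EBAX-1 on the transcriptome of starved first-stage (L1) larvae was examined with 4 of the 6 poly(A)+ RNA libraries of the series, 2 from wild type and 2 from the mutant, and 13756 of the 20447 genes in the count table had enough reads to be tested. Wild type was strain N2 and the mutant was strain CZ9907, which carries *ebax-1(tm2321)*. Both were grown at 20 °C on *E. coli* OP50, bleached for embryos, and left to hatch overnight in M9 buffer with no food, and each library was made from 3 µg of total RNA of the arrested larvae with a stranded kit. Food deprivation is thus common to all 4 libraries, and no fed larvae are compared here. One mutant allele in one strain stands for the loss of the gene, and the study ascribed a piRNA change seen in the *tm2321* line to a probable mutation outside *ebax-1*, so a difference between these libraries is a difference between strains. The other 2 libraries came from gravid adults, 1 per genotype and with the mutant strain FX02321, and are used below only for rows and pairs of neighbouring genes.

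EBAX-1 is the worm counterpart of mammalian ZSWIM8, the substrate receptor of a cullin-RING ubiquitin ligase. When a microRNA pairs extensively with a trigger transcript, this ligase marks the Argonaute protein that holds it, and the microRNA is then lost. A starved L1 larva arrests its growth and lives on reserves laid down in the egg, using fat and the glyoxylate cycle to make sugar, and its cells hold back division until food returns. Protein folding in such a cell is served by separate sets of chaperones, one in the cytosol controlled by heat shock factor, and one in the endoplasmic reticulum (ER) controlled by the unfolded protein response.

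The libraries held between 10937932 and 13425500 counts, and the 10 highest genes took 8.72% to 10.1% of a library. Levels are given as CPM, counts scaled to a common library size after TMM normalization. They are not divided by gene length, so levels of different genes are not compared. *ebax-1* itself (WBGene00004140, WBcel235 chromosome IV, 10286955 to 10293013, plus strand) stood at 76.04 and 74.01 CPM in wild type and at 40.8 and 46.2 CPM in the mutant. The reads summed over the coding sequence do not separate the part that the allele removes. Each p-value below is from edgeR's quasi-likelihood test, adjusted over all 13756 genes, and a gene passed at 0.05. With 2 libraries a genotype an exact permutation test could not go under p = 0.333, so these p-values rest on a spread estimated across genes. Larval tissue markers were present throughout, and the 7 hypodermal markers summed to between 223 and 236 CPM in every library. Yolk genes of the adult intestine summed to at most 3.81 CPM in any library, and 26 of 34 sperm genes had 0 counts in all of them.

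Of the tested genes, 2278 passed (16.6%), 907 with a higher level in *ebax-1* larvae (6.59%) and 1371 with a lower one (9.97%). Most of these changes were small, with a median size of 0.55 on the log2 scale, and 380 reached 2-fold. Before adjustment 3920 genes had a p under 0.05. The libraries of the genotypes did not overlap in 7727 of the 13756 tested genes, which include every called gene. A lack of overlap thus adds nothing to a call. The direction of the call depended on the level. Among the 7657 genes at up to 20 CPM, 444 were higher and 323 lower, whereas among the 1530 genes between 100 and 1000 CPM, 93 were higher and 441 lower. In the 145 genes above 1000 CPM, 46 were lower and only *crt-1*, *enpl-1* and the ribosomal protein gene *rpl-36.A* were higher. This split depends on scaling. When libraries were scaled by their total counts instead of by TMM, the median log2 fold change of all genes moved from 0.00603 to 0.17, and the calls became 2341 higher and 728 lower, or 76.3% higher in place of 39.8%. Above 1000 CPM that scaling gave 6 higher and 27 lower genes. Directions below are relative to the TMM scale, and the counts under total-count scaling are given where they differ. Shares of lists are set below against all genes and were not matched for level. Of all genes at up to 20 CPM 4.22% were lower, and of those between 100 and 1000 CPM 28.8%. Leaving out 1 wild-type library also lowered the number of calls, to 1470 without replicate 1 and 1359 without replicate 2. RNA of whole larvae was measured, so fewer cells of a type and less RNA per cell cannot be told apart.

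**Figure D1:**
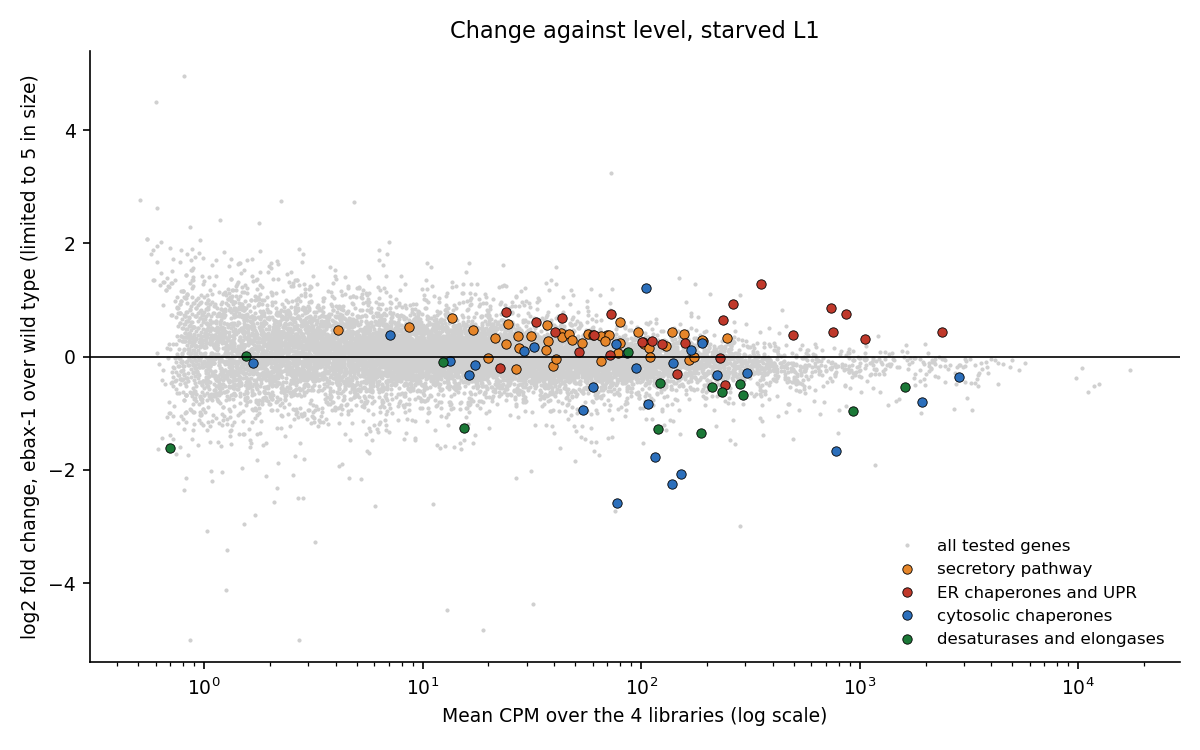
Log2 fold change of *ebax-1* over wild type (vertical axis, values limited to 5 in size) against mean CPM over the 4 libraries (horizontal axis, log scale) for the 13756 tested genes (grey) and 4 gene lists (coloured). Genes above 1000 CPM lie mostly below 0, ER chaperone genes (red) lie mostly above it, and cytosolic chaperones (blue) and fatty acid desaturases and elongases (green) reach down to falls of several fold.

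The calls in the 2 chaperone systems pointed in opposite directions. In the ER, 17 of 25 tested genes of chaperones and the unfolded protein response were higher in *ebax-1* larvae and 2 were lower, with a median log2 fold change of 0.38 against 0.00603 over all genes. In the cytosol, 12 of 26 heat shock chaperones and cochaperones were lower and 1 was higher, with a median of -0.24. Under total-count scaling the ER list had 19 higher and 1 lower, and the cytosolic list 5 higher and 9 lower.

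The ER member with the smallest adjusted p was *hsp-4* (WBGene00002008, chromosome II, 7350112 to 7352645), the inducible BiP chaperone whose reporter is the usual readout of the unfolded protein response in worms. It stood at 219.5 and 189 CPM in wild type and at 541 and 457 CPM in the mutant, and the genotypes did not overlap. This was a 2.44-fold rise (log2 1.29, SE 0.10, edgeR adjusted p = 7.23e-09). *hsp-3*, the other BiP gene, went from 649 and 638 CPM to 1107 and 1052 CPM, a 1.68-fold rise (adjusted p = 2.76e-06). Protein disulfide isomerases, which form and shuffle disulfide bonds in secreted proteins, also rose. *pdi-6* had 194 and 170.3 CPM in wild type and 349 and 341 CPM in the mutant, *pdi-2* rose 1.81-fold, *pdi-1* 1.57-fold and *pdi-3* 1.36-fold. *crt-1*, the calcium-binding chaperone calreticulin, was at 2013 CPM in both wild-type libraries and at 2794 and 2666 CPM in the mutant, a 1.36-fold rise (adjusted p = 0.00153). Its gain in CPM was the largest of any called gene. The rise of *crt-1*, and that of the GRP94 gene *enpl-1*, did not pass without either wild-type library.

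Other ER members that rose have different tasks. *dnj-7* (0.76 on the log2 scale), *dnj-27* (0.79) and *manf-1* (0.68) encode luminal cofactors, *ero-1* (0.38) the oxidase that recharges disulfide isomerases, and *cup-2* (0.62), *sel-1* (0.27) and *sel-11* (0.26) parts of the machinery that sends misfolded proteins back to the cytosol. *xbp-1*, the transcription factor spliced by IRE-1, rose 1.3-fold. None of the sensors was called higher. *ire-1* had a log2 fold change of 0.03 (adjusted p = 0.902) and *atf-6* one of 0.08 (adjusted p = 0.647), while *pek-1*, the PERK kinase, fell to 0.805 of its wild-type level (adjusted p = 0.016). The other lower gene was *cnx-1*, the membrane-bound relative of calreticulin, which stood at 269 and 297 CPM in wild type and at 212 and 186 CPM in the mutant. Calreticulin and calnexin, which bind the same sugar tags on folding proteins, thus changed in opposite directions, each with no overlap between genotypes. The number of ER genes that rose was 11 if wild-type replicate 1 was left out and 9 if replicate 2 was.

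In the secretory pathway 24 genes rose as well. Of 45 tested genes listed for protein translocation, N-glycosylation, vesicle coats and the exocyst, 21 did not pass and 0 fell, and the median was 0.29 on the log2 scale. The 21 include *bet-1* and *bet-2*, bromodomain genes matched by name that belong to none of these groups. The strongest call was *sec-23*, an inner coat subunit of the COPII vesicles that leave the ER, at 64.9 and 61.3 CPM in wild type and 94.3 and 98.1 CPM in the mutant, a 1.52-fold rise (adjusted p = 4.6e-05). The COPII genes *sec-24.1*, *sec-31* and *sar-1* rose 1.36-, 1.3- and 1.35-fold. Of the COPI coat genes for the return path, *copa-1* rose 1.32-fold, *copd-1* 1.31-fold, *cope-1* 1.28-fold and *copg-1* 1.2-fold, whereas *copb-1*, *copb-2* and *copz-1* did not pass (log2 0.15, 0.18 and -0.01). Rises were also called for the signal peptidase genes *sec-11* (1.47-fold) and *spcs-1* (1.48-fold) and the oligosaccharyltransferase genes *stt-3* (1.255-fold) and *dad-1* (1.39-fold). Each change was small, and the count depended on single libraries: leaving out wild-type replicate 1 gave 13, wild-type replicate 2 gave 8 and mutant replicate 1 gave 15, and DESeq2 called 11. No gene of the list fell in any of these settings, and total-count scaling called 33.

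In the cytosol the largest falls were those of stress-inducible chaperones. The heat-inducible HSP70 gene *hsp-70* went from 141 and 124 CPM in wild type to 28.6 and 15.3 CPM in the mutant, 6.001-fold lower (adjusted p = 2.58e-10). *hsp-16.2* (WBGene00002016, chromosome V, 1804334 to 1804957) and its divergent neighbour *hsp-16.41* encode small heat shock proteins that hold unfolded clients. *hsp-16.2* stood at 258 and 233 CPM in wild type and at 69.1 and 46.8 CPM in the mutant, 4.23-fold lower (log2 -2.08, SE 0.12, adjusted p = 1.65e-10). *hsp-16.41* went from 246 and 212 CPM to 59.8 and 36.7 CPM, 4.73-fold lower. The *hsp-16* genes are close copies of each other and only unique alignments were counted, so their separate levels are uncertain. The mutant libraries were below both wild-type libraries for every gene of this paragraph, with replicate 2 the lower of the mutant pair.

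Some constitutive chaperones of the HSP70 system fell too. *hsp-110*, its nucleotide exchange factor, had 1170 and 1192 CPM in wild type and 408 and 336 CPM in the mutant, 3.17-fold lower (adjusted p = 1.65e-10). *dnj-13*, a J-domain partner, went from 201 and 158 CPM to 53.5 and 51.9 CPM, 3.4-fold lower. *hsp-1*, the constitutive HSP70, fell from 2382 and 2520 CPM to 1497 and 1308 CPM, 1.75-fold lower (adjusted p = 3.1e-06). In the HSP90 branch *sti-1*, the adaptor that joins HSP70 to HSP90, was 1.92-fold lower, the myosin chaperone *unc-45* 1.45-fold and *hsp-90* 1.28-fold. *hsf-1*, which encodes heat shock factor, did not pass (log2 0.21, adjusted p = 0.139). Against the list, *sip-1*, a small heat shock protein gene best known from embryos, rose from 65.7 and 60.7 CPM to 154.6 and 137.9 CPM (2.31-fold, adjusted p = 5.46e-09).

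Folding machines that are not heat-inducible to the same degree showed smaller differences. Of 14 tested genes of the TRiC chaperonin and prefoldin, 5 were lower, with *cct-8* 1.35-fold and *cct-6* 1.33-fold lower, and total-count scaling left 2. In mitochondria 0 of 24 chaperone, import and protease genes rose and 3 fell, against 6.59% of all genes higher and 9.97% lower. The mitochondrial HSP70 gene *hsp-6* went from 673 and 717 CPM to 493 and 461 CPM (1.46-fold lower, adjusted p = 0.000135), while *hsp-60* had a log2 fold change of -0.15 (adjusted p = 0.313).

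**Figure D2:**
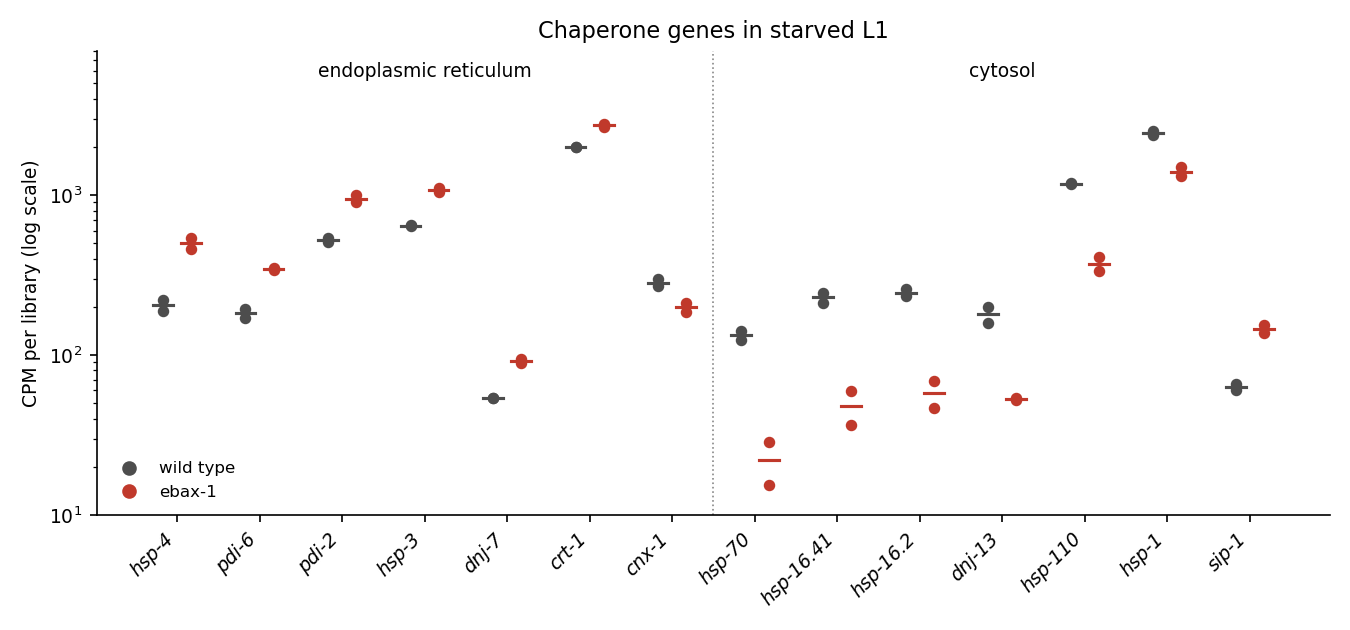
CPM (vertical axis, log scale) of 7 ER and 7 cytosolic chaperone genes in each library, wild type in grey and *ebax-1* in red, with a bar at the mean of 2 libraries. In every gene shown the genotypes do not overlap: all ER genes but *cnx-1* are higher in the mutant and all cytosolic genes but *sip-1* are lower.

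Falls were frequent among genes that make fatty acids longer or less saturated. Of 14 tested fatty acid desaturases and elongases 10 fell and 0 rose, with a median log2 fold change of -0.58, and under total-count scaling 10 fell and 1 rose. Many genes of fat metabolism and many proteases are active in the intestine, and its 6 markers summed to 2955 and 3147 CPM in wild type and to 2437 and 2649 CPM in the mutant. Of these only *ifb-2*, an intermediate filament gene, fell (1.28-fold), while *elt-2*, the main intestinal transcription factor, stood at 57.3 CPM in both wild-type libraries and at 55.6 and 59.8 CPM in the mutant. The part of the intestine in the falls of lipid, lipase and protease genes was not tested. *elo-5* and *elo-6* extend monomethyl branched-chain fatty acids, which worms make themselves and need to grow after hatching. *elo-5* stood at 151 and 187 CPM in wild type and at 74.8 and 63.8 CPM in the mutant, 2.44-fold lower (log2 -1.28, SE 0.10, adjusted p = 1.6e-08). *elo-6* went from 240.2 and 296 CPM to 127 and 84.5 CPM, 2.53-fold lower. The delta-9 desaturases, which make oleic acid and its shorter relative, fell with them. *fat-6* had 1184 and 1275 CPM in wild type and 681 and 588 CPM in the mutant, 1.94-fold lower, and *fat-5* was 2.39-fold lower. *fat-7*, a near copy of *fat-6*, had 12 and 14 wild-type counts and 5 and 3 mutant counts and did not pass (log2 -1.62, adjusted p = 0.0638). The enzymes that turn oleic acid into polyunsaturated fatty acids differed less, with *elo-1* 1.6-fold lower, *fat-3* 1.54-fold, *fat-2* 1.46-fold, *fat-1* 1.45-fold and *fat-4* 1.4-fold.

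In fatty acid synthesis the clearest call was at the first step. *pod-2*, acetyl-CoA carboxylase, stood at 936 and 1171 CPM in wild type and at 553 and 546 CPM in the mutant, 1.92-fold lower (adjusted p = 8.38e-07). The gene of the synthase itself, *fasn-1*, had a log2 fold change of -0.14 and did not pass. Of 8 tested genes of this list 2 fell, the other being *let-767* (1.48-fold lower). Among 19 acyl-CoA synthetases, which activate fatty acids, 7 fell and 1 rose, against 9.97% of all genes lower and 6.59% higher. *acs-2* went from 1095 and 1200.2 CPM to 545 and 358 CPM, 2.54-fold lower (adjusted p = 2.33e-07), and *acs-19* was 2.61-fold lower. Under total-count scaling 5 synthetases were higher and 4 lower.

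In mitochondrial beta-oxidation 3 of 27 tested genes were lower and 0 higher, against 9.97% of all genes lower and 6.59% higher. A pair of those 3 showed the largest falls of the fat genes. *ech-7*, an enoyl-CoA hydratase, stood at 66.9 and 89.5 CPM in wild type and at 19.37 and 24.03 CPM in the mutant, 3.61-fold lower (log2 -1.85, SE 0.13, adjusted p = 2.21e-09). *hacd-1*, a hydroxyacyl-CoA dehydrogenase that acts on the product of that step, went from 44.2 and 56.6 CPM to 14.1 and 10.8 CPM, 4.04-fold lower.

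Peroxisomes shorten very long chains and make the ascaroside pheromones. Of 29 tested genes of peroxisomal oxidation, transport and import 16 fell and 0 rose, with a median log2 fold change of -0.32. *acox-3*, an acyl-CoA oxidase, had 632 and 569 CPM in wild type and 344 and 332 CPM in the mutant, 1.78-fold lower (adjusted p = 8.37e-07). Of 11 tested peroxins, which build the organelle and import its enzymes, 7 fell. These were *prx-6*, *prx-11*, *prx-14*, *prx-10*, *prx-2*, *prx-12* and *prx-1*, with log2 fold changes between -0.76 and -0.37. The thiolase *daf-22*, which completes ascaroside side chains, was 1.24-fold lower and its partners *maoc-1* and *acox-1.1* were 1.33-fold and 1.2-fold lower. The peroxisomal count was not stable. It was 6 without wild-type replicate 1, 9 without mutant replicate 2 and 6 with DESeq2, and total-count scaling gave 3 higher and 5 lower. Of 6 lysosomal lipases 4 fell, with *lipl-2* going from 318 and 317 CPM to 187 and 174 CPM (1.76-fold lower, adjusted p = 5.9e-07). Without either wild-type library 2 of them passed.

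Falls were also frequent among sugar-making genes. Of 16 tested genes of the glyoxylate cycle, gluconeogenesis and trehalose metabolism 10 fell and 1 rose, with a median log2 fold change of -0.38. *icl-1*, the bifunctional enzyme that routes acetyl-CoA from fat into sugar, stood at 4145 and 4436 CPM in wild type and at 2336 and 2129 CPM in the mutant, 1.92-fold lower (log2 -0.94, SE 0.10, adjusted p = 3.77e-07). *pck-2*, a phosphoenolpyruvate carboxykinase, went from 1689.5 and 1785 CPM to 979.6 and 932 CPM, 1.82-fold lower, and *fbp-1*, fructose-1,6-bisphosphatase, was 1.62-fold lower. Trehalose, the disaccharide that protects arrested larvae, is made by *tps-1* and *tps-2* and cut by the *tre* enzymes. *tps-2* was 2.12-fold lower, *tps-1* 1.42-fold and the trehalase *tre-1* 1.48-fold, and *tre-5* was the one gene of the list that rose (1.6-fold). Total-count scaling left 7 lower and 1 higher.

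Glycolysis and the tricarboxylic acid cycle held single enzymes with clear falls among many that did not pass. Over all genes 9.97% were lower and 6.59% higher, and between 100 and 1000 CPM 28.8% were lower. In glycolysis 6 of 19 tested genes fell and 1 rose. *aldo-2*, the aldolase of both directions of the pathway, had 2461 and 2594 CPM in wild type and 1264 and 1274 CPM in the mutant, 1.99-fold lower (adjusted p = 9.87e-08), and *pgk-1*, phosphoglycerate kinase, fell by 0.64 on the log2 scale. *gpd-2* and *gpd-3* fell 1.22- and 1.46-fold, but they are near-identical copies and their separate counts are uncertain. Without either wild-type library 3 genes of this list fell. Of 25 genes of pyruvate dehydrogenase and the tricarboxylic acid cycle 5 fell and 1 rose. The share that fell was above that of all genes but below that of genes between 100 and 1000 CPM. The falls were of pyruvate dehydrogenase (*pdhb-1* 1.66-fold, *pdha-1* 1.37-fold, *dld-1* 1.41-fold) and of the cytosolic enzymes *aco-1* (1.62-fold) and *idh-1* (1.61-fold). The mitochondrial counterparts *aco-2* and *idh-2* had log2 fold changes of -0.19 and -0.01 and did not pass.

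The respiratory chain differed by little per gene. Of 46 tested nuclear genes 17 fell and 2 rose, and the median was -0.18 on the log2 scale. Over all genes 9.97% were lower and 6.59% higher, and between 100 and 1000 CPM, where many of these genes lie, 28.8% were lower. The largest fall among the 4 strongest calls was that of *atp-2*, an ATP synthase subunit, from 2822 and 2877 CPM to 2186 and 1967 CPM, 1.37-fold lower (adjusted p = 0.00141). These calls rested on scale and on single libraries, since total-count scaling left 2 falls against 4 rises, and 4 and 3 fell without wild-type replicates 1 and 2. *ant-1.1*, the main ADP/ATP translocase of mitochondria, lost more CPM than any other called gene, from 13220.5 and 13840 to 9141 and 8306 CPM (1.55-fold lower, adjusted p = 0.000101).

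One-carbon and propionate metabolism showed a similar mix, with 9 of 27 tested genes lower and 1 higher. Over all genes 9.97% were lower, and between 100 and 1000 CPM 28.8%. *pmt-2*, a methyltransferase that builds phosphocholine in worms, stood at 476 and 504 CPM in wild type and at 230.7 and 216.8 CPM in the mutant, 2.19-fold lower (adjusted p = 7.23e-09). *pmt-1*, which acts before it, was 1.4-fold lower. The methionine synthase gene *metr-1* fell 1.6-fold, and the vitamin B12-dependent propionate pathway fell at *mmcm-1* (1.41-fold), *pcca-1* (1.3-fold) and *pccb-1* (1.23-fold). *hphd-1*, of the propionate shunt that does not need the vitamin, was the gene that rose (1.24-fold). Without wild-type replicate 1 the list held 5 falls, and under total-count scaling 5 falls and 3 rises.

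**Figure D3:**
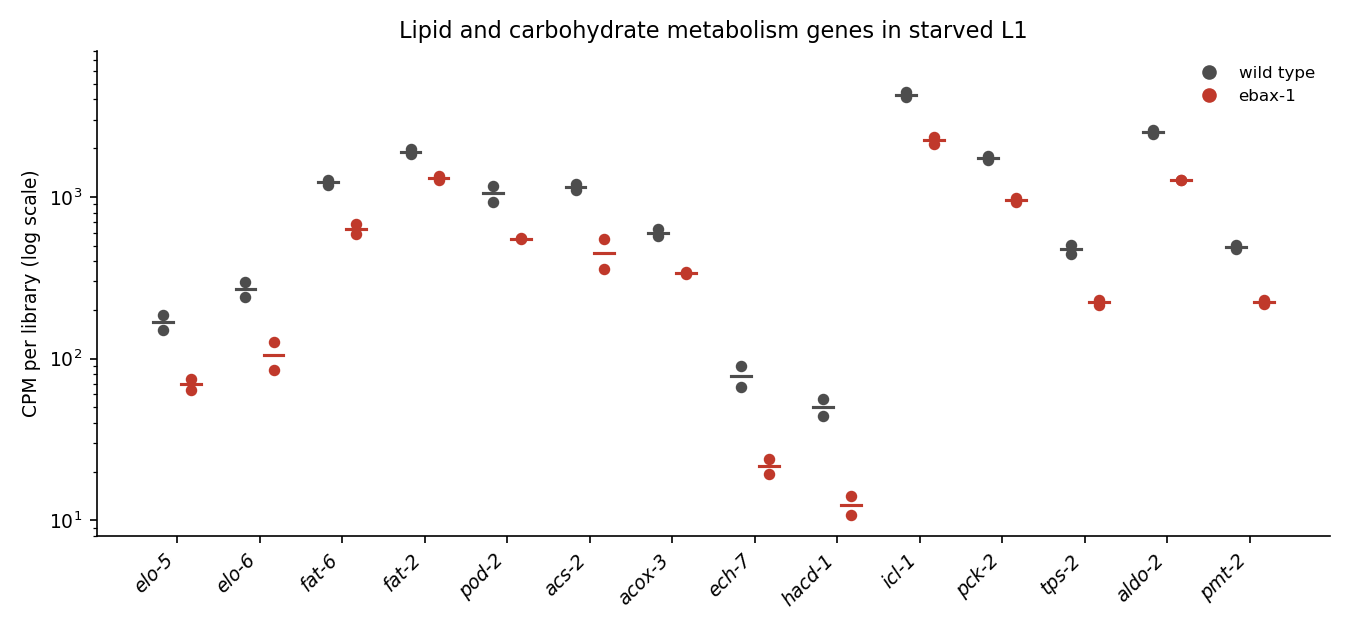
CPM (vertical axis, log scale) of 14 lipid and carbohydrate metabolism genes in each library, wild type in grey and *ebax-1* in red, with a bar at the mean of 2 libraries. The mutant libraries lie below both wild-type libraries in every gene shown, by 1.46-fold in *fat-2* to 4.04-fold in *hacd-1*.

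Lysosomal and digestive proteases had more falls than rises. Of 24 tested cathepsin-type and aspartic proteases 12 fell, 2 rose and 10 did not pass, with a median log2 fold change of -0.30, and the aspartic family gave 8 of the falls among its 13 tested members and 0 rises. The aspartic protease gene *asp-1* went from 10752 and 11452 CPM to 8192 and 8871 CPM (1.3-fold lower, adjusted p = 0.00963). *asp-3*, a necrosis-linked protease, fell from 4029.96 and 4195 CPM to 2865 and 2846 CPM (1.44-fold lower). The cathepsin B-like genes split. *cpr-4* stood at 86.1 and 78.0 CPM in wild type and at 201 and 229 CPM in the mutant, a 2.62-fold rise (log2 1.39, SE 0.09, adjusted p = 7.3e-10), and *cpr-9* rose 1.43-fold, whereas *cpr-1* was 1.79-fold and *cpr-6* 1.52-fold lower. The falls numbered 7 and 6 without wild-type replicates 1 and 2, and 7 under total-count scaling.

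Among antimicrobial peptide genes of the epidermis every call was a rise. Of 26 tested genes of the *nlp-29* group, the caenacins and their relatives 13 rose, 13 did not pass and 0 fell, and the median was 0.43 on the log2 scale. The wound- and fungus-inducible cluster on chromosome V (3978825 to 3989770) rose as a row of 6 neighbours, *nlp-34*, *nlp-31*, *nlp-30*, *nlp-29*, *nlp-28* and *nlp-27*. In the adult libraries 2 of the 6 were above wild type, with a median log2 ratio of -0.098. *nlp-29* had 30.7 and 32.2 CPM in wild type and 53.7 and 46.8 CPM in the mutant, a 1.6-fold rise (adjusted p = 0.000117). *nlp-34* went from 20.5 and 14.2 CPM to 41.75 and 36.04 CPM, 2.24-fold higher. The cluster genes are short and similar in sequence, so reads shared between them were not counted. The number that rose was 8 without wild-type replicate 1, and 9 with DESeq2. Among 35 antioxidant enzymes and metallothioneins 2 rose and 7 fell. Here *sod-5*, an inducible superoxide dismutase, went from 1.097 and 1.187 CPM to 4.64 and 3.89 CPM and *gpx-3*, a glutathione peroxidase, rose 2.07-fold, while the intestinal metallothionein *mtl-1* fell from 65.9 and 62.1 CPM to 30.4 and 32.4 CPM. The falls came to 1 without wild-type replicate 2, and to 2 under total-count scaling.

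Cuticle collagens moved both ways. Of 77 tested *col* genes 15 rose and 20 fell, and both shares were above those of all genes (6.59% and 9.97%). The largest changes were falls. *col-160* stood at 441 and 561 CPM in wild type and at 57.7 and 68.5 CPM in the mutant, 7.95-fold lower (log2 -2.99, SE 0.12, adjusted p = 1.07e-13), and *col-80* went from 124 and 139 CPM to 20.6 and 18.99 CPM, 6.65-fold lower. *col-93* had 37.9 and 34.8 CPM in wild type and 1.38 and 1.15 CPM in the mutant, 28.4-fold lower, and *col-159* and *col-101* were 22.4-fold and 6.1-fold lower. *col-92*, with few reads, went from 18 and 40 counts to 2 and 1. *col-159* and *col-160* overlap, so their counts are not fully separate. *col-42* stood at 1794 and 1916 CPM in wild type and at 473 and 509 CPM in the mutant, 3.78-fold lower (log2 -1.92, SE 0.09, adjusted p = 5.63e-12). *col-98* (2.77-fold), *col-147* (3.16-fold) and *col-39* (2.18-fold) fell with it. The rises were smaller, with *col-104* going from 20.3 and 20.2 CPM to 35.8 and 40.2 CPM (1.88-fold), and *col-77*, *col-14* and *col-115* rising 1.58-, 1.56- and 1.87-fold. Other cuticle genes gave few calls. Of 10 tested structural collagens with body-shape phenotypes 1 was lower, and of 24 molting regulators 1 was lower, the megalin gene *lrp-1* (1.32-fold). Of 47 genes listed as cuticlins and zona pellucida proteins 1 was lower and 1 higher. The list also holds *sym* and *mlt* genes, and the lower gene was *sym-4*. Among its *cut* and *cutl* genes the only call was the rise of *cutl-23*. Among 15 collagen-modifying enzymes 6 rose and 1 fell. The rises include *pdi-1*, *pdi-2* and *pdi-3*, which were already counted in the ER list. The prolyl hydroxylase gene *dpy-18*, which acts in a complex with PDI-2, rose from 42.9 and 32.4 CPM to 71.6 and 58.3 CPM (1.72-fold, adjusted p = 9.88e-05), and *phy-4* rose 2.51-fold. *phy-2*, the other main hydroxylase of the epidermis, had a log2 fold change of -0.01. The procollagen protease gene *adt-2* fell from 106.8 and 109.9 CPM to 62.3 and 59.4 CPM (1.78-fold).

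Rises were frequent among DNA replication genes of the arrested larvae. Of 42 tested genes 17 rose, against 6.59% of all genes, 25 did not pass and 0 fell, and the median was 0.55 on the log2 scale. *mcm-7*, a subunit of the replicative helicase, stood at 19.2 and 19.7 CPM in wild type and at 38.98 and 32.86 CPM in the mutant, a 1.85-fold rise (adjusted p = 2.64e-05). The ribonucleotide reductase gene *rnr-2* rose 1.8-fold and *pcn-1*, the sliding clamp PCNA, 1.64-fold. In mitosis and the kinetochore 15 of 56 tested genes rose and 1 fell, with *bub-1*, a spindle checkpoint kinase, 1.55-fold higher. This second count was unstable, since it was 5 and 7 without wild-type replicates 1 and 2, 7 without mutant replicate 1, and 3 with DESeq2. Replication genes that rose numbered 11 without wild-type replicate 1, and 10 with DESeq2.

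A smaller part of the germline genes rose. Of 47 tested genes of germ granules and germline maintenance 12 rose, 35 did not pass and 0 fell, with a median of 0.43. *cey-2*, a germline Y-box protein gene, went from 9.64 and 9.58 CPM to 23.03 and 24.03 CPM (2.45-fold, adjusted p = 1.72e-06), *gld-1*, a translational repressor of the meiotic germline, from 4.16 and 4.41 CPM to 11.9 and 11.2 CPM (2.7-fold), the P granule gene *meg-1* from 3.61 and 2.46 CPM to 12.13 and 9.19 CPM (3.496-fold), and the germline Notch receptor *glp-1* rose 1.7-fold. The 4 markers of germline precursors summed to 26.97 and 29.25 CPM in wild type and to 45.1 and 40.7 CPM in the mutant, and *pgl-1* was the marker that rose. All 4 are also members of the germline list, so the sum is not separate from it. Of 7 oocyte and eggshell markers *oma-1* and *oma-2* rose, and the sum was 26.3 and 26.9 CPM in wild type against 46.3 and 30.3 CPM in the mutant. Neither oocyte call held without mutant replicate 1. The number of germline cells in the larvae was not counted, and the part of these markers in the replication and germline changes was not tested.

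RNA processing and translation differed by less. Of 62 splicing factors 8 rose and 0 fell (median 0.16), among them the Sm protein genes *snr-5* and *snr-6*, and total-count scaling called 32. Neither *snr* gene passed without mutant replicate 2. Of 79 cytosolic ribosomal protein genes 3 rose and 0 fell, and their median was -0.06 (0.09 under total-count scaling). *rpl-29* stood at 398 and 347 CPM in wild type and at 443 and 643 CPM in the mutant, so that its rise came mainly from mutant replicate 2. The list as a whole changed with the library left out, to 13 higher and 2 lower without mutant replicate 1 and to 1 higher and 9 lower without mutant replicate 2. Of 65 mitochondrial ribosomal protein genes 9 fell and 1 rose. The one that rose, *mrps-35*, lies in the chromosome V block described below.

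Genes of the microRNA pathway and of several ubiquitin ligases were also read out. Among 35 genes of the microRNA pathway 6 fell and 2 rose, and *ebax-1* was one of those that fell. *lin-41*, a classic target of the *let-7* microRNA, stood at 279.5 and 269 CPM in wild type and at 168 and 172 CPM in the mutant, 1.61-fold lower (adjusted p = 4.02e-06). The Argonaute gene *alg-1* was 1.23-fold lower and its cofactor *ain-2* 1.26-fold, while the germline Argonaute *alg-5* rose from 6.11 and 7.12 CPM to 12.29 and 9.629 CPM. Without wild-type replicate 1 the list held 2 falls and 0 rises. Of 37 subunits of the anaphase-promoting complex and cullin-RING ligases 5 rose and 3 fell. *ned-8*, the modifier that switches cullins on, rose from 7.92 and 7.63 CPM to 13.999 and 17.76 CPM (2.04-fold, adjusted p = 0.000231), and *rbx-1*, the RING subunit, rose 1.33-fold. *ddb-1*, the adaptor of another cullin, fell 1.37-fold. The 5 rises became 2 without either wild-type library and 1 with DESeq2.

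**Figure D4:**
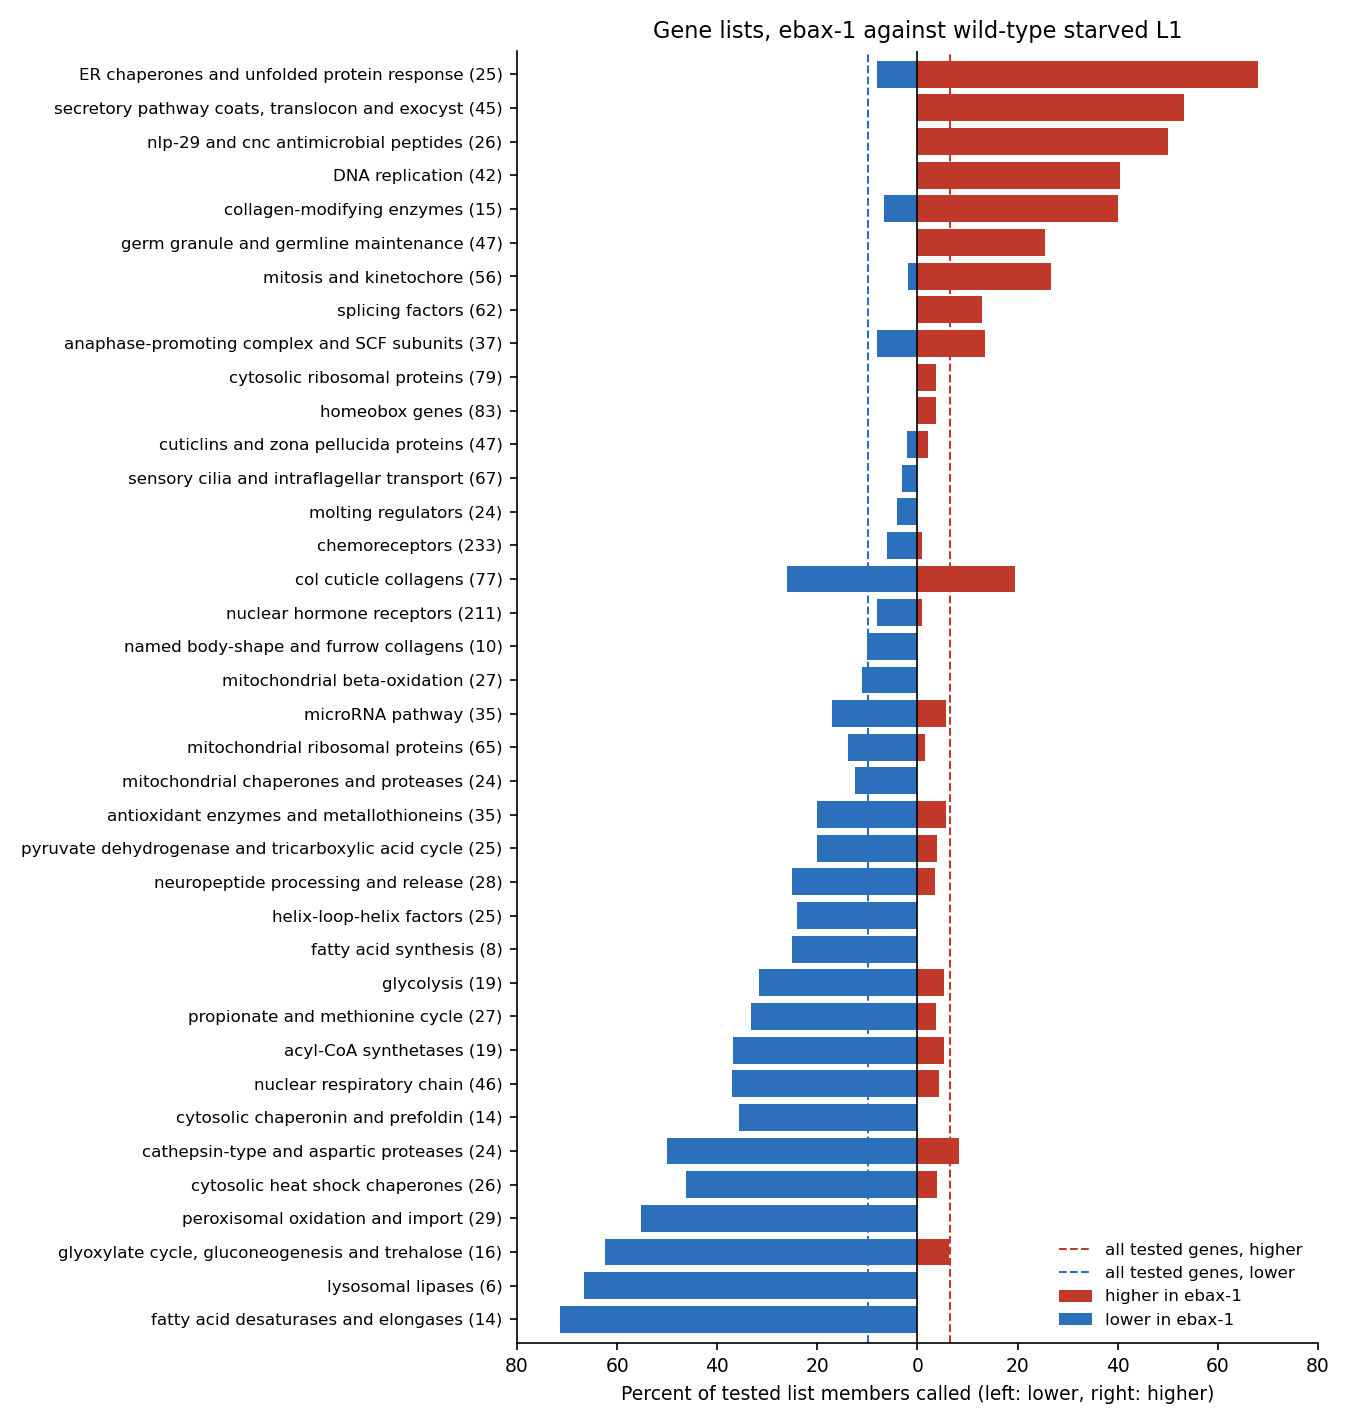
Percent of the tested members of each of 38 gene lists (vertical axis, number tested in parentheses) that were higher (red, right) or lower (blue, left) in *ebax-1* larvae, sorted by the difference of both shares. Dashed lines mark the shares over all tested genes, 6.59% higher and 9.97% lower, and ER, secretory and antimicrobial peptide genes lie at the top while desaturases, lipases and the glyoxylate cycle lie at the bottom. Lists were not matched for level, and 4.22% of genes at up to 20 CPM and 28.8% of those between 100 and 1000 CPM were lower.

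The tested genes were also read in chromosome order for rows of at least 4 neighbours that passed in 1 direction, and 10 such rows were found. The longest was on the right arm of chromosome V, where 11 consecutive tested genes from *Y39B6A.43* to *Y39B6A.33* (WBcel235, 18960964 to 19006722) were all higher in the mutant. They include *mrps-35*, of the mitochondrial ribosome, *gtf-2F2*, a subunit of the general transcription factor TFIIF, and *tgt-2*, a subunit of the enzyme that puts queuosine into tRNA, and lie on both strands. *mrps-35* stood at 20.5 and 21.9 CPM in wild type and at 51.3 and 52.6 CPM in the mutant (log2 1.29, SE 0.11, adjusted p = 3.08e-08). *gtf-2F2* went from 24.8 and 21.7 CPM to 49.7 and 55.1 CPM (log2 1.17) and *tgt-2* from 21.95 and 22.04 CPM to 45.8 and 44.3 CPM (log2 1.04). *Y39B6A.33*, the gene of the row with the most reads, went from 314 and 321 CPM to 553 and 569 CPM (log2 0.82). As in every called gene, the genotypes did not overlap in any of the 11.

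On the left side the row was continued by genes chosen after their values were seen. *ztf-20*, a zinc finger gene next to the row, had a log2 fold change of 0.69 and did not pass (adjusted p = 0.129), and beyond it *hrg-10* rose from 6.66 and 4.92 CPM to 15.79 and 14.05 CPM and *ptr-22*, a patched-related gene, from 11.1 and 9.66 CPM to 20.8 and 19.7 CPM. From *ptr-22* to *Y39B6A.33* (18919221 to 19006722) the block spans 87.5 kb with 14 tested genes, of which 13 were higher. Their fold changes ran from 0.62 to 1.96 on the log2 scale, and the median was 1.997-fold. Its ends were placed where the rises stopped, so the flanking genes are no test of how sharp they are. The 10 tested genes to the left had a median log2 fold change of -0.03 with 0 higher and 1 lower. The 10 to the right had a median of -0.15 with 0 higher and 2 lower, among them the protease genes *asp-16* and *asp-1*. Over all genes 6.59% were higher and 9.97% lower. All 14 genes had a positive fold change in every setting in which they were tested, and 12 to 14 passed. With the filter at a mean of 50 wild-type counts 11 were tested and 11 passed. *sws-1*, with 5 and 1 wild-type counts and 10 and 13 mutant counts, was at the threshold (adjusted p = 0.04999) and lost its call in 7 alternatives, each of which would split the row.

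In the adult libraries, from another strain with the same allele and with 1 library a genotype and so no test, all 14 genes of the block were again above wild type. Their log2 ratios ran from 0.36 to 1.74 with a median of 0.67 (1.59-fold). The flanking genes had medians of 0.00272 and 0.04. They ran from -0.91 to 0.46 on the left and from -0.33 to 0.51 on the right. The highest flanking ratios were thus above the lowest of the block.

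A shorter row on the same chromosome had larger changes. The 5 neighbours *C01G10.15*, *C01G10.6*, *C01G10.5*, *C01G10.4* and *C01G10.17* (15086913 to 15091114) were all higher in mutant larvae, with log2 fold changes from 1.1 to 2.72 and a median of 1.65. *C01G10.6* went from 9.33 and 6.27 CPM to 21.6 and 28.002 CPM, and *C01G10.17* from 1.41 and 1.1 CPM to 6.999 and 9.81 CPM (6.59-fold, adjusted p = 1.2e-06). In the adults 4 of the 5 were above wild type, and the median log2 ratio was 2.13.

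**Figure D5:**
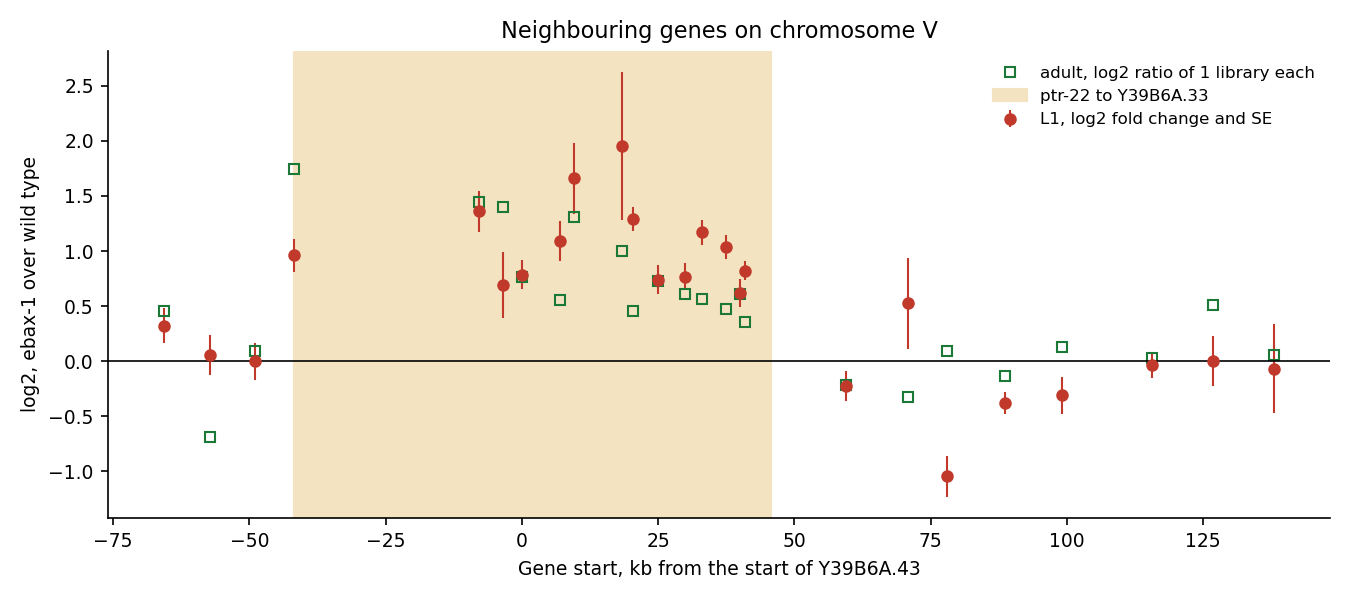
Log2 change of *ebax-1* over wild type (vertical axis) for neighbouring tested genes on chromosome V by distance of the gene start from that of *Y39B6A.43* in kb (horizontal axis), as L1 log2 fold change with its SE (red points, 2 libraries a genotype) and as adult log2 ratio of 1 library each (green squares). The shaded span holds *ptr-22* to *Y39B6A.33*, where all 14 L1 values lie between 0.62 and 1.96, and the genes outside it scatter around 0.

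Further to the left on the same arm, a pair of neighbouring genes on opposite strands had no reads in mutant larvae. *ZK228.3* (18458241 to 18461250) had 19 and 23 counts in wild type and 0 in both mutant libraries. Its neighbour *ZK228.4* (18462787 to 18465426) had 72 and 61 in wild type and again 0 in both mutant libraries. Adult counts, wild type first, were 251 and 0 for *ZK228.3* and 329 and 2 for *ZK228.4*. Both were present in both wild-type stages and at or near 0 in both mutant strains.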

How the data were processed

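Poly(A)+ RNA of starved L1 larvae was compared between wild type (N2) and *ebax-1(tm2321)* (CZ9907), with 2 libraries a genotype grouped by GEO's labels. The study calls the larval libraries biological replicates. The authors deposited raw counts per gene. By their methods and processing notes reads were aligned to WBcel235 with STAR 2.7.1a, and unique alignments over coding sequence were counted by strand with featureCounts. Reads in untranslated regions, or matching more than one gene, are therefore missing. Of 20447 genes 19620 had a symbol in the RefSeq table used for names.

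Counts were filtered with filterByExpr (minimum count 10), scaled by TMM, fitted with genotype as the only term and tested two-sided with edgeR 4.0.16 in R 4.3.3 (quasi-likelihood F-test, Benjamini-Hochberg adjustment, threshold 0.05). The test was checked on simulated counts. Alternatives were RLE factors, total-count scaling, no filter, a mean of at least 50 wild-type counts, DESeq2 1.42.0, a replicate block, and each library left out. Adult log2 ratios used a prior count of 1.

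Members and the 38 gene lists were chosen with earlier results of these data known. Some members matched by mistake were removed from lists after their values were seen. Genes to name were drawn from *ebax-1*, the 4 largest rises and falls in each of 3 level classes (20 to 100, 100 to 1000 and over 1000 CPM), the 5 largest gains and losses in CPM, called genes at 5 CPM or more in one genotype with at most 3 counts in the other, rows of at least 4 neighbours called in 1 direction, from each list the called genes ranked first by adjusted p, at most 4 (at most 2 members where none was called), and tissue markers; not every gene so drawn is described. Further list members, *ztf-20*, *hrg-10*, *ptr-22* and *ZK228.3* were named after their values were seen. Sequences were not used here.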

Additional observations from a re-analysis of the deposited data

How the results depend on the processing

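The 2278 calls (907 higher, 1371 lower, 380 of at least 2-fold) stayed within 1.5-fold with RLE factors and with no filter. DESeq2 called 1325 genes, 429 higher and 896 lower, 244 of them at 2-fold, and 1324 of its calls were shared with edgeR in the same direction. Total-count scaling gave 2341 higher and 728 lower, and a mean of at least 50 wild-type counts left 196 at 2-fold. With 1 library left out, calls ranged from 1359 to 2396, higher calls from 521 to 992, lower calls from 838 to 1404 and 2-fold calls from 335 to 398; the lone library of a genotype is then assumed to vary like the other genotype. The labels give both genotypes the replicate numbers 1 and 2, but nothing says that they pair, and deviations of same-numbered libraries had a correlation of -0.00301. A replicate block gave 2249 calls (871 higher, 1378 lower, 362 at 2-fold).

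Under total-count scaling the median log2 fold change changed sign for fatty acid synthesis (0.020), acyl-CoA synthetases (0.067), pyruvate dehydrogenase and the tricarboxylic acid cycle (0.10), neuropeptide processing (0.093), chemoreceptors (0.082), nuclear hormone receptors (0.13), helix-loop-helix factors (0.087), the microRNA pathway (0.13), antioxidants (0.026), beta-oxidation (0.14), cuticlins (0.10), collagen-modifying enzymes (0.15), molting regulators (0.13) and cytosolic (0.094) and mitochondrial (0.14) ribosomal proteins, as that of all genes moved by 0.16. It also changed sign for chemoreceptors with no filter (0.042), mitochondrial chaperones without mutant replicate 2 (-0.027, range over left-out libraries -0.027 to 0.018) and helix-loop-helix factors without wild-type replicate 2 (0.063, range -0.039 to 0.063). Medians near 0 also changed sign in other settings for beta-oxidation, cuticlins, chemoreceptors, collagen-modifying enzymes and homeobox genes. No called gene drawn by the naming rule changed direction, but genes near 0 that were not called could, as did *idh-2* (-0.01 to 0.15), *phy-2* (-0.01 to 0.15) and *fasn-1* (-0.14 to 0.03) under total-count scaling. Calls of named genes were lost most often without wild-type replicate 1 (41) or 2 (39), under total-count scaling (29) and with DESeq2 (25). Depth limits the low genes, since 13756 of 20447 genes had enough counts to test.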

Other observations

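Neuronal and regulatory genes differed from list to list. Of 28 genes for making and releasing neuropeptides 7 fell and 1 rose, against 9.97% of all genes lower and 6.59% higher. *egl-3*, the proprotein convertase of neurons, stood at 2247 and 2408 CPM in wild type and at 1621 and 1662 CPM in the mutant (1.42-fold lower, edgeR adjusted p = 0.000425), *egl-21*, the carboxypeptidase that trims its products, was 1.54-fold lower, and the convertase *kpc-1* 1.69-fold. The 8 neuronal markers summed to 3899 and 4143 CPM in wild type and to 2863 and 2951 CPM in the mutant, and *egl-3* and *egl-21* were those of them that fell. Both are also genes of the list. *egl-3* alone gave 2247 and 2408 CPM of the wild-type sums and 1621 and 1662 CPM of the mutant sums. The part of this sum in the list's falls was not tested. Sensory cilia and intraflagellar transport had few calls, with 2 of 67 genes lower and 0 higher, and among 233 chemoreceptors 14 were lower and 2 higher, for the falls a share below that of all genes. For genes at up to 20 CPM the share lower was 4.22%. The chemoreceptor gene *srw-85* stood at 61.7 and 59.9 CPM in wild type and at 2.03 and 3.89 CPM in the mutant, 20.7-fold lower (edgeR adjusted p = 1.56e-13). Body wall muscle markers were lower in 4 of 6 cases, each by less than 1.5-fold, and none of these 4 calls held without wild-type replicate 2.

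Among transcription factors 6 of 25 tested helix-loop-helix genes fell, by between 1.23-fold (*mml-1*) and 2.84-fold (*mxl-3*). *hlh-11* went from 704 and 749 CPM to 261 and 268 CPM (2.74-fold lower, edgeR adjusted p = 1.85e-10), and the MAX-like gene *mxl-3*, a repressor of lysosomal lipases in fed worms, from 112.2 and 72.14 CPM to 33.94 and 31.01 CPM (2.84-fold lower). Of 211 nuclear hormone receptors 17 fell and 2 rose, for the falls again below the 9.97% of all genes. *nhr-17* stood at 107.5 and 89.69 CPM in wild type and at 29.6 and 29.3 CPM in the mutant (3.35-fold lower), *nhr-57* and *nhr-21* fell by 0.97 and 0.95 on the log2 scale, *nhr-88* was 1.78-fold lower, and *nhr-80*, a regulator of delta-9 desaturases, 1.44-fold. Of 83 homeobox genes 3 rose and 0 fell.

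The other rows of neighbours that passed in 1 direction held 4 or 5 genes. On chromosome III *ikke-1*, *R107.5*, *cls-2*, *gst-1* and the Notch receptor gene *lin-12* (9046039 to 9071472) were lower, with *R107.5* going from 172 and 135 CPM to 71.2 and 72.0 CPM, and so were *twk-7*, *F22B7.9*, *dpy-19* and *F22B7.1* (8634067 to 8667482). *dpy-19* and *F22B7.1* overlap on opposite strands. In the adults 2 of the 5 genes of the *ikke-1* row and 1 of the 4 of the *twk-7* row were below wild type. On chromosome IV the pathogen- and insulin-responsive genes *dod-24*, *F55G11.7*, *F55G11.8* and *dod-22* (12940106 to 12967392) were lower, with *dod-22* going from 23.2 and 18.6 CPM to 7.81 and 6.01 CPM (3.02-fold). Only 1 of these 4 was below wild type in the adults, where the median log2 ratio was 1.18. On the mitochondrial genome 6 of 12 tested genes were lower and 0 higher, and *COX3*, a cytochrome oxidase subunit, stood at 1408 and 1331 CPM in wild type and at 1108 and 757 CPM in the mutant. *COX3* lies in a row of 4, of which 3 were below wild type in the adults (median log2 ratio -0.037).

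The 3 remaining rows lay on chromosome V. *ldp-1*, *F22F7.7*, *srbc-20* and *srbc-24* (2127535 to 2153092) were lower, with *ldp-1* going from 132.2 and 135.6 CPM to 75.7 and 66.2 CPM, and all 4 were below wild type in the adults too (median log2 ratio -0.74). *adss-1*, *hsp-6*, *C37H5.5* and *nas-9* (4818763 to 4840013) were lower, with a median log2 fold change of -0.48, and again all 4 were below wild type in the adults (-0.31). *gmpr-1*, *fipp-1*, *neg-1* and *F32D1.7* (4369353 to 4376173) were higher by a median of 0.47, and 2 of the 4 were above wild type in the adults.

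Single genes with large changes belonged to no list. *sgn-1* rose from 13.95 and 13.99 CPM to 134.5 and 128.4 CPM (9.4-fold, edgeR adjusted p = 7.54e-15). The ARF-like GTPase gene *warf-1* rose from 23.2 and 17.9 CPM to 69.4 and 53.3 CPM (2.98-fold), *gale-1*, UDP-galactose epimerase, from 25.16 and 18.06 CPM to 70.2 and 40.6 CPM (2.56-fold), and *K07E3.1* from 103.9 and 101.1 CPM to 230.6 and 269.3 CPM (2.44-fold). *adh-1*, an alcohol dehydrogenase, fell from 3553 and 3519 CPM to 1909 and 1815 CPM (1.9-fold), and *CC8.2* from 48.5 and 38.4 CPM to 10.1 and 9.63 CPM (4.41-fold).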
